A study of Mus musculus with 2 samples.

Results

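Mouse genes whose RefSeq messenger RNA rows stop at different 3′ ends were examined in eosinophils sorted from the healthy colon. A gene was taken when it had 2 or more NM rows (curated protein-coding RefSeq transcripts) on the same chromosome and strand whose 3′ ends lay 500 bases or more apart. The rule used coordinates only and no measured value. It took 950 of 20711 genes with an NM row, or 2868 of 27537 NM rows. A gene placed on more than 1 chromosome or strand, such as Ccl21b, was counted once on each. In 282 of the 950 genes no row of 1 end overlapped any row of the other in the genome. In 277 of these the same accession was placed at both positions. These 282 genes were counted and not compared. The 5 of them with no shared accession are Atxn7l1, Mecom, Mup2, Syne1 and Tcte3. The other 668 genes, with 1955 NM rows, had both ends at 1 locus.

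The data are 1 group of 2 samples of naive wild-type C57BL6 mice, with no treatment and no altered allele named; the labels leave out the age, the number of animals and the sort gate. Cells freed from the colon by enzymes were put through flow cytometry to take the eosinophils, and each sample's RNA gave 3 technical CEL-Seq libraries with different primer pools. CEL-Seq primes on the poly(A) tail and reads tags near it. The table gives 1 read total and 1 RPKM (reads scaled to transcript length and library depth) per RefSeq row, averaged by the authors over all 6 libraries, so read totals below are those means times 6, with no SD, no n and no test between samples.

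A messenger RNA is cut and given its poly(A) tail downstream of a short hexamer, most often AATAAA. Where a gene holds more than 1 such site, the site used decides how the RNA ends. Sites in tandem in the same last exon change only the length of the 3′ untranslated region. A site in an upstream intron, joined to an exon of its own, gives another last exon and often another protein C terminus, as in membrane receptors with a soluble form. Choice of the site is carried out by the cleavage and polyadenylation machinery and is known to shift with cell activation and proliferation.

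The sequences below show the hexamer that ends some of the rows the results turn on. They are 30 bases each, 5′ to 3′ on the strand of the gene, with the hexamer in capitals, taken from GENCODE M21 transcripts (GRCm38, the sequence of mm10) that stop within 10 bases of the row. The genes are Cdc42, a small GTPase of the actin cytoskeleton, Cd84, a self-binding receptor of leukocytes, Fas, the death receptor, Csf1, the macrophage growth factor, Ccdc9, Ifnar2, a chain of the type I interferon receptor, Il1rl1, the interleukin-33 receptor, and Cxcl12, a retention chemokine.
Cdc42 proximal, chr4:137321764-137321793, minus strand: tgaaATTAAAaatatacaattgtttgtata
Cdc42 distal, chr4:137319699-137319728, minus strand: atgtATTAAAcaaacaaaacccttcacaag
Cd84 proximal, chr1:171855068-171855097, plus strand: aaaaacaaaaggAATAAAcaatctcaaagc
Cd84 distal, chr1:171890689-171890718, plus strand: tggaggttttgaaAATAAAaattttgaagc
Fas proximal, chr19:34309314-34309343, plus strand: attgATTAAAatacactgtatgcttacagc
Fas distal, chr19:34327742-34327771, plus strand: ttaaATTAAAgtatctctttttgcatttct
Csf1 proximal, chr3:107745597-107745626, minus strand: gtctATTAAAaaccccagttctatttcctg
Csf1 distal, chr3:107741054-107741083, minus strand: taatAATAAAagaagtgcacaagctgccac
Ccdc9 proximal, chr7:16275470-16275499, minus strand: ctccAATAAAaagttcacttccttaaatga
Ccdc9 distal, chr7:16274045-16274074, minus strand: ctagggattgaATTAAAcgcgtgctaccgc
Ifnar2 proximal, chr16:91394011-91394040, plus strand: ctgccAATAAAtgcacaccactgagctgcc
Il1rl1 distal, chr1:40465386-40465415, plus strand: tctagcttATTAAAaaaaaaaatctagaaa
Cxcl12 proximal, chr6:117175040-117175069, plus strand: tttacctgaAATAAAatctactagttgtta
Cxcl12 distal, chr6:117181337-117181366, plus strand: ttttcctAATAAAgttctgtattcaaatat
In this set, both ends of Cdc42 and of Fas carry ATTAAA, and both ends of Cd84 and Cxcl12 carry AATAAA.

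The rows together held 8096526 reads over the 6 libraries. The sorted RNA held eosinophil markers, with 8 of 9 listed genes at an RPKM of 1 or more, from Il5ra at 18.6 to Alox15 at 230 (229.9), and the peroxidase gene Epx below at 0.265. Markers of other cells were also present: all 5 epithelial genes reached an RPKM of 1 (10.1 to 89.3), as did all 3 fibroblast genes (22.7 to 66.7), 3 of 4 macrophage genes (Mertk at 0, Apoe highest at 54.3), 2 of 4 neutrophil genes (Elane and Mpo at 0) and 2 of 3 lymphocyte genes (Jchain highest at 44.1), while neither mast cell gene did. Reads of a row below can come from any of these cells, and their part in the row contrasts was not tested. Fewer cells of a type and less RNA per cell cannot be told apart in such a pool.

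The ends of a gene were compared by the row with the most reads at the proximal (upstream) end and at the distal (downstream) end. Of the 668 genes at 1 locus, 87 had no read at either end, 307 had 1 to 59 reads and 274 had 60 or more, which was the minimum for a comparison. That is 41.0% of these genes. Among all genes with an NM row, 31.8% had 60 reads or more on their highest row. The 274 genes held 230015 reads on the rows compared, 156342 on distal and 73673 on proximal rows. Distal rows thus held 68.0% of these reads. In 6 of the 274 genes, among them Pde4b, Ddx17, Crem, Triobp and Arhgap27, the proximal end lies outside the distal row compared. The 2 rows compared then do not overlap, only other rows of the gene do. Such rows differ in where they start as well as where they end. Starts also differ between the rows compared in some genes whose rows overlap, such as Mbp, Dst, Ripor2, Ncor1 and Nfatc1. These contrasts are not of ends alone.

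Distal rows were the higher in most genes. The distal row had at least 2 times the reads of the proximal row in 171 of 274 genes (62.4%), the proximal row had at least 2 times the reads of the distal row in 66 (24.1%), and 37 fell between. The median log2 ratio of distal to proximal reads was 2.97, with quartiles at -0.86 and 5.32, and the median distal share was 88.7% of the reads of both rows. A proximal row was at 0 in 47 genes and a distal row in 9. Counts below 3, 0 included, were set to a floor of 3 reads over all libraries, so ratios against such a row are lower bounds. The exact 95% binomial (Clopper-Pearson) interval of the distal share lay above 50% in 185 genes, below it in 79 and held 50% in 10. These intervals cover counting error only, and reads copied by amplification are counted as separate reads, since the labels name no molecular identifiers.

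**Figure D1:**
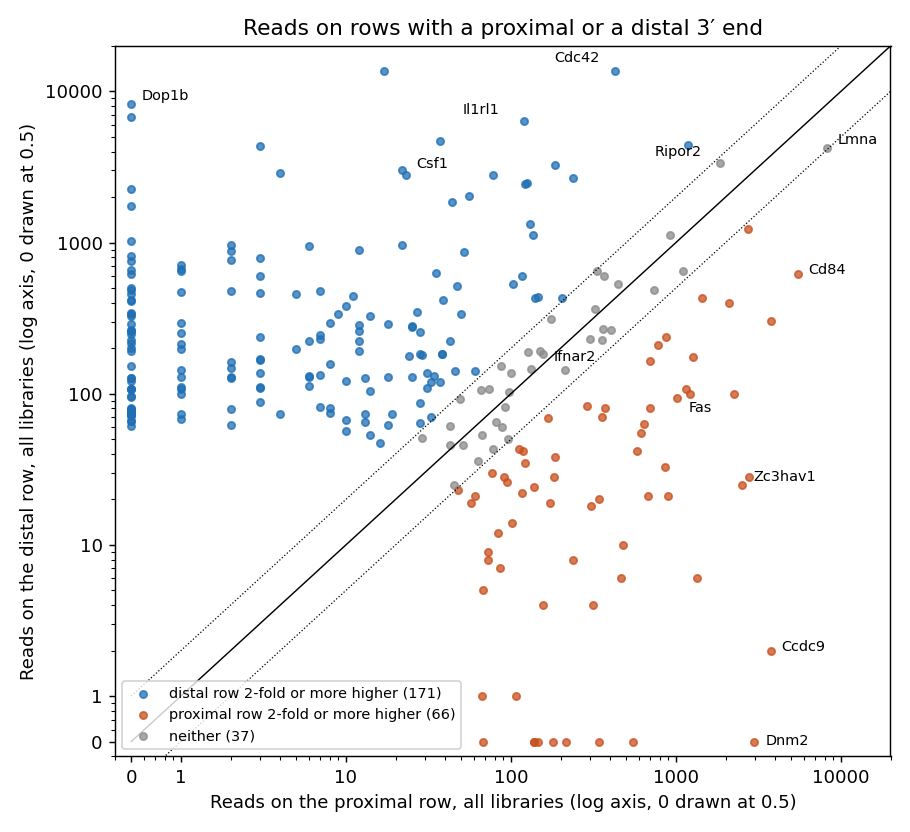
Reads over all 6 libraries on the proximal row (x axis) and the distal row (y axis) of the 274 genes with 60 reads or more, on log axes with 0 drawn at 0.5; the solid line marks equality and the dotted lines 2-fold. The 171 genes with a 2-fold higher distal row lie upper left, many with 0 to 10 proximal reads, and the 66 genes with a 2-fold higher proximal row lie lower right.

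Folds of this size were also common between rows that share an end. As background, 1304 genes whose NM rows all share 1 end, which a 3′ tag cannot tell apart, were compared by their highest and lowest row. These rows differed 2-fold or more in 68.9% of genes, against 86.5% (237 of 274) in genes with ends 500 bases or more apart. Among genes with exactly 2 NM rows, 513 of 855 that share an end and 134 of 146 with separate ends (91.8%) differed 2-fold or more. At 10-fold the shares were close, 63.3% (826 genes) among rows sharing an end and 61.3% (168 genes) among rows with separate ends. In genes whose ends lay apart by less than 500 bases, 65.7% of 35 differed 2-fold or more, 28.6% toward the distal and 37.1% toward the proximal end, with a median log2 ratio of 0.

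The contrasts took these forms. Rows sharing an end had identical read totals in 27.6% of genes and a row at 0 in 58.3%, and only 14.1% (184 genes) had unequal totals that were all above 0. Both rows were above 0 in 79.6% (218) of genes with separate ends, and in none of the 274 were the totals equal. How reads that fit several rows were counted is not given in the sources used here, and the rows sharing an end show that a read total of 0 does not say that an end was unused.

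**Figure D2:**
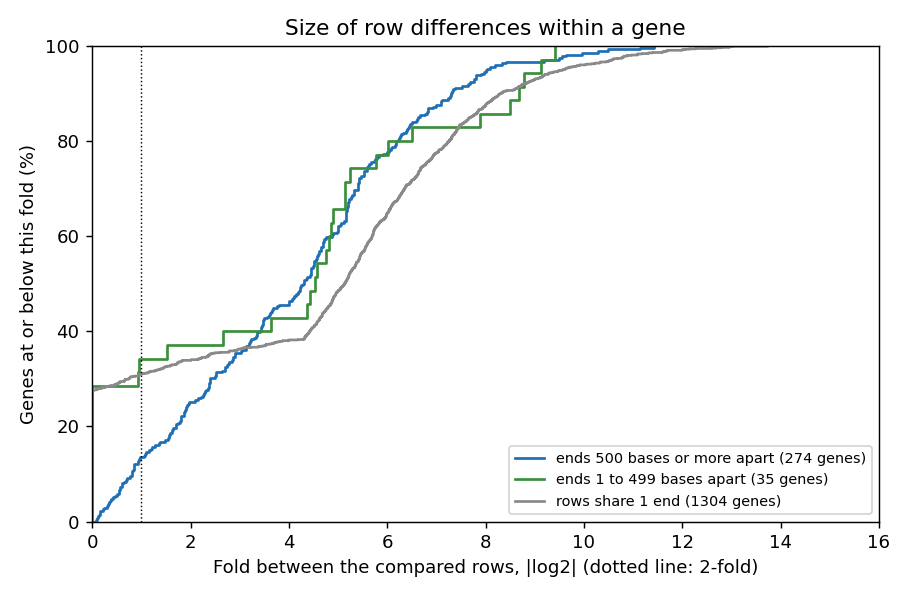
Cumulative percent of genes (y axis) against the absolute log2 fold between the compared rows (x axis) for genes with ends 500 bases or more apart (274), ends under 500 bases apart (35) and rows that share 1 end (1304). Rows sharing an end start at 27.6% with no difference and stay near that level until large folds, whereas genes with separate ends are spread over small folds too.

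The direction moved with the spliced length of the rows. Lengths were known for both rows of 127 genes, from GENCODE transcripts that end within 50 bases. Where the distal row was the longer (100 genes), it was 2-fold higher in 71.0% and 2-fold lower in 15.0%, with a median log2 ratio of 4.36. Where it was the shorter (27 genes), it was 2-fold higher in 37.0% and 2-fold lower in 55.6%, with a median of -1.74. Among genes with exactly 2 rows that share an end and 1 of them at 0, the row at 0 was the longer in 169 and the shorter in 22 of 220 with known lengths. The part of length in the direction was not tested.

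Distance between the ends ranged from 613 to 731049 bases in the genes compared, with a median of 11494.5. In the 115 genes with ends from 10000 to under 50000 bases apart, the distal row was 2-fold higher in 67.8% and the proximal row in 18.3%. From 2000 to under 5000 bases (54 genes) these shares were 61.1% and 27.8%. The shortest classes were thin: 8 of 17 genes from 1000 to under 2000 bases and 1 of 6 under 1000 bases had a 2-fold higher distal row, and 7 and 3 a 2-fold higher proximal row. No gene with 60 reads had its ends 500 to 600 bases apart. Dnm2 at 613, Usp19 at 638 and Chpt1 at 663 bases were the nearest inside the rule, with proximal and distal reads of 2994 and 0, 449 and 534, and 186 and 38. Just outside it lay Hnrnpa2b1 at 497, Slc35a2 at 465 and Ptger4 at 461 bases, with 0 and 1669, 99 and 8, and 0 and 85 reads.

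**Figure D3:**
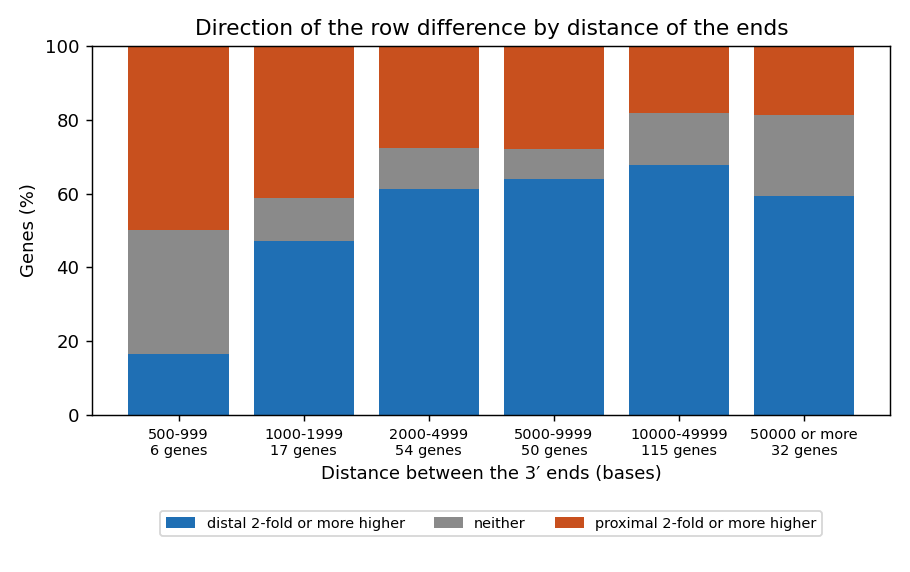
Percent of genes (y axis) with a distal row 2-fold or more higher, neither, or a proximal row 2-fold or more higher, by distance between the 3′ ends in bases (x axis). The share with a higher distal row is between 59.4% and 67.8% in the 4 classes from 2000 bases up, and lower in the 2 classes under 2000 bases, which hold 17 and 6 genes.

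Most of these ends belonged to different last exons. For 203 of the 274 genes the distal row had a GENCODE transcript ending within 50 bases, from which the position of the proximal end was read. It lay in an intron of the distal transcript in 194 genes, in its last exon (tandem ends) in 6, and upstream of it in 3, which are Triobp, Arhgap27 and Mrtfb. The 194 genes had a median log2 ratio of 2.90, with 63.4% past 2-fold distal and 23.2% proximal. Stop codons could be compared in 127 genes and differed in 118, of which 74 were past 2-fold distal and 28 proximal. In the 9 that share a stop codon, 7 were past 2-fold distal, among them Arl2bp, Cdc42se1, Csf1, Dad1, Kif5a and Sugp2, and 2 proximal (Dnajc1 and Gne).

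The 6 genes with tandem ends went both ways, and all but Arl2bp were named after their values were seen. Their proximal end lies inside the last exon of the distal transcript, so a tag at the proximal end also fits the distal row. A distal read total in these genes therefore need not come from the distal end. Arl2bp, a partner of the small GTPase Arl2, had 0 proximal and 1027 distal reads, and Cdc42se1, a Cdc42 effector, had 0 and 411. Snx27, a sorting nexin, and Spin1, a chromatin reader, had 12 and 192 and 0 and 78. The 2 with a higher proximal row were Cnot6l, a deadenylase of the CCR4-NOT complex, with 1145 proximal and 108 distal reads, and Gne, the key enzyme of sialic acid synthesis, with 781 and 209. Distal shares were thus 8.62% (7.12 to 10.3) in Cnot6l and 21.1% (18.6 to 23.8) in Gne.

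Receptors with a known soluble form differed among themselves. The eosinophil-expressed Il1rl1 (chromosome 1, plus strand) had 120 reads on the proximal row NM_010743, ending at 40448362, and 6390 on the distal row NM_001025602, ending at 40465414. Its proximal end is known to give the secreted decoy ST2 and its distal end the membrane receptor, and the distal share was 98.2% (97.8 to 98.5). Ifnar2 had 157 proximal and 184 distal reads. The rows match transcripts of 248 and 513 residues, the shorter of which is secreted, and the distal share of 54.0% (48.5 to 59.3) included 50%. On RPKM, which divides by row length, its distal share was 28.6%. For Fas, the proximal row, matched to a coding sequence of 63 residues, held 1022 reads, and the distal row of 327 residues held 94. Whether the row of 63 residues gives the soluble form of Fas was not tested. The distal share of Fas was 8.42% (6.86 to 10.2), so the row of the full-length receptor was the lower, also on RPKM (120 and 3.51, a wider gap than in reads). Of 8 receptor genes of the list that have separate ends these 3 had 60 reads, 1 in each class, with a median log2 ratio of 0.23 beside 2.97 over all genes compared.

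Growth factors also went apart. Csf1 had 23 proximal and 2802 distal reads, a distal share of 99.2% (98.8 to 99.5). Its ends lie in alternative noncoding last exons, and the rows share their stop codon. Cxcl12 had 122 proximal and 35 distal reads, for forms of 89 and 93 residues, and a distal share of 22.3% (16.1 to 29.6), or 11.8% on RPKM. Cxcl12 is made mainly by stromal cells, and the fibroblast markers above are in the same pool.

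The gene with the most reads was Cdc42 (chromosome 4, minus strand). Its proximal row NM_001243769 had 429 reads and its distal row NM_009861 had 13727, a distal share of 97.0% (96.7 to 97.2). On RPKM the rows stood at 19.8 and 379. Both rows encode 191 residues and differ in the C terminus that carries the lipid anchor, 1 of the forms being best known from brain. Gnas, the stimulatory G protein alpha subunit, had 0 proximal and 2260 distal reads, at least 753-fold higher. The 3 genes of the signalling list that were compared were past 2-fold toward the distal end, as were 62.4% of all genes compared. So few genes show nothing about the list. Not every signalling gene compared is in it: Jak3, given below, was past 2-fold toward the proximal end.

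Other genes with many reads and a higher distal row included Ncor1, a nuclear receptor corepressor, with 17 proximal and 13584 distal reads. Dop1b, named Dopey2 in the table, had 0 and 8308 reads, at least 2769-fold higher. Pde4b, a cyclic AMP phosphodiesterase of leukocytes, had 0 and 6817, at least 2272-fold higher, on rows that do not overlap and start at different positions. Dad1, a subunit of the oligosaccharyltransferase, had 3 and 4324 reads, a distal share of 99.9% (99.8 to 99.99), with the same stop codon on both rows. Pdlim7, a PDZ and LIM adaptor of actin filaments, had 37 and 4726, and Son, a splicing cofactor, had 1183 and 4433. Copg1, a coatomer subunit, had 4 and 2876 reads, and Triobp, an actin-binding protein, had 0 and 1745. The Copg1 rows match 121 and 874 residues. Ends of Copg1, Dop1b and Ncor1 lay 22835, 70310 and 84951 bases apart, and another gene lies in the stretch for Ncor1 and for Triobp.

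Of the 66 genes with a 2-fold higher proximal row, Cd84 had the most reads. On chromosome 1, plus strand, it had 5476 reads on the proximal row NM_001252472, matched to 140 residues, and 623 on the distal row NM_013489, matched to 329 residues. The distal share of Cd84 was 10.2% (9.47 to 11.0), 8.79-fold fewer reads on the distal row, and the RPKM of the rows was 88.0 and 11.3. Zc3hav1, the zinc finger antiviral protein, had 2525 proximal and 25 distal reads, and its proximal end is known to give the shorter form of the protein. Irf1, an interferon response factor, had 548 and 0 reads, at least 183-fold lower on the distal row. Ly6c1, a myeloid surface antigen, had 340 and 0, but shares sequence with its close paralog, so its totals are uncertain.

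The most proximal contrast was in Ccdc9, with 3750 proximal and 2 distal reads, a distal share of 0.0533% (0.00646 to 0.192). Dnm2, the dynamin of endocytosis, had 2994 and 0 reads, at least 998-fold lower on the distal row, with another gene in the stretch between its ends. Marchf2, a ubiquitin ligase that the table lists under a name read as a date, had 2763 and 28, and Ankrd33b had 3774 and 301. Their distal shares were 1.00% and 7.39% of reads, and 0.451% and 1.99% on RPKM. Mbp, known for myelin but also expressed from an upstream start in immune cells, had 1335 and 6 (0.447% distal, or 1.33% with summed rows). Its proximal row starts at 82475123 and its distal row downstream at 82554508, so the Mbp contrast is of starts as well as ends. The proprotein convertase Pcsk5 had 313 and 4. Stx3, a syntaxin of granule fusion, had 2755 proximal and 1234 distal reads, with a distal share of 30.9% (29.5 to 32.4). The mean over its distal rows gave Stx3 18.3%, and RPKM gave 35.1%, short of 2-fold. Dnm2 and Stx3 are the 2 genes of the vesicle traffic list that were compared, and 24.1% of all genes compared were past 2-fold in their direction. The list does not hold every such gene: Copg1 and Snx27, given above, were past 2-fold toward the distal end.

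Of 4 genes compared from the transcription factor and chromatin list, 1 was past 2-fold distal, 2 proximal and 1 neither. Over all genes compared, 62.4% were distal and 24.1% proximal. The list does not hold every transcription factor compared, and Irf1, given above, is outside it. Nfatc1, a factor of calcium signalling whose short form is known to end proximally, had 860 proximal and 33 distal reads, and its relative Nfatc2 had 0 and 108. Crem, a cyclic AMP response factor with 15 rows, had 51 and 46, a share of 47.4% (37.2 to 57.8). With the mean over the rows of an end the distal share of Crem was 14.0%, past 2-fold toward the proximal end. The same mean gave Nfatc1 1.88%, against 3.70% by the highest row. Bcl2 had 7 reads on the row of its shorter beta form and 231 on that of the alpha form of 236 residues, which is anchored in membranes. Cflar, the inhibitor of caspase-8 activation, had 0 reads on the row of a short form and 153 on the distal row. These 2 survival genes were past 2-fold toward the distal end, the direction of 62.4% of all genes compared.

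Of RNA-binding genes, Qk, whose isoforms differ in the C terminus and the 3′ untranslated region, had 701 proximal and 165 distal reads (a distal share of 19.1%, or 11.0% with summed rows), and the helicase Ddx17 had 0 and 343. Of cytoskeletal genes, Tpm1, a tropomyosin, had 5 and 199, and Dst, a cytolinker, had 6 and 113. The ubiquitin list held no gene with separate ends.

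**Figure D4:**
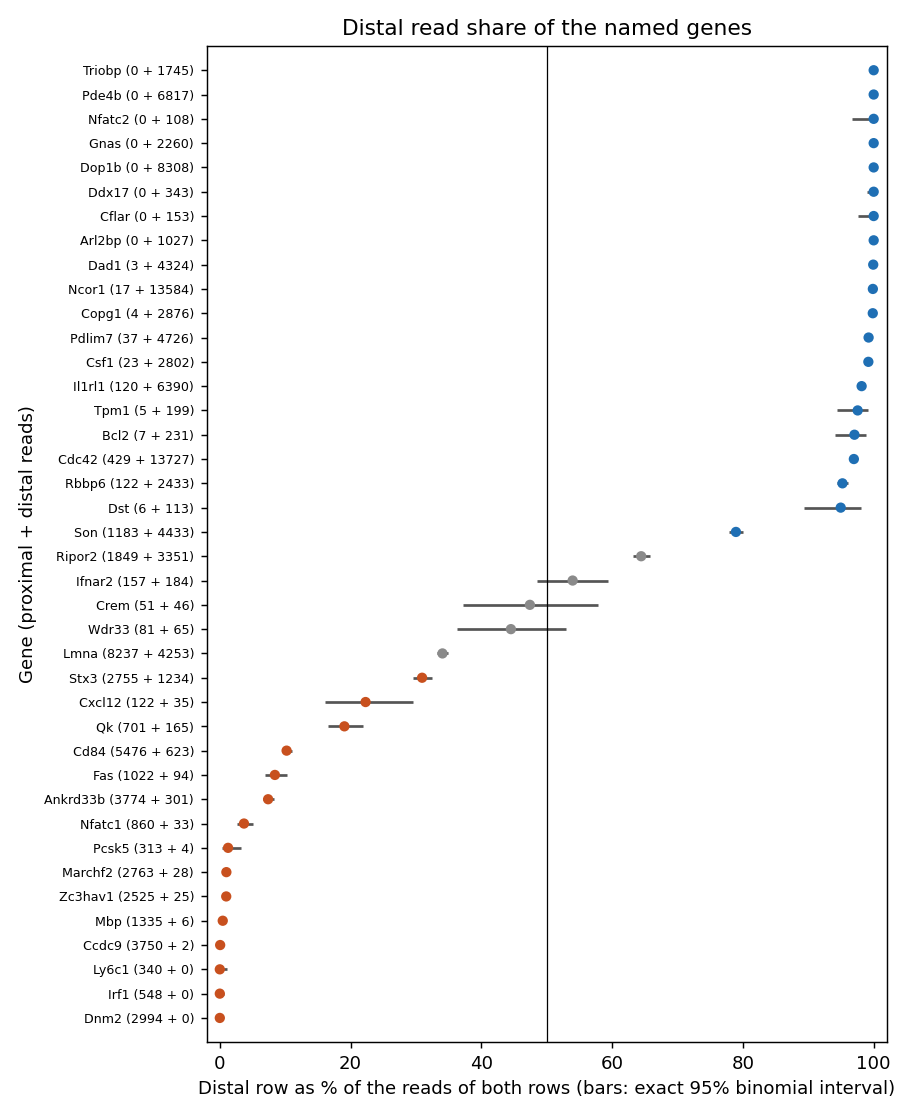
Distal row as a percent of the reads of both rows (x axis) for 40 named genes (y axis, with its proximal and distal reads), points coloured by the 2-fold class and bars showing the exact 95% binomial interval. Ifnar2, Crem and Wdr33 are the genes whose interval crosses 50%, while Lmna and Ripor2 lie apart from it on either side.

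Both ends were well covered in a minority. In 62 genes both rows had 60 reads or more, and here 16 were 2-fold higher on the distal row, 19 on the proximal row and 27 on neither, with a median distal share of 51.8%. This choice by read number favours balanced rows. Lmna, which encodes lamins A and C, led these genes with 8237 reads on the proximal row and 4253 on the distal row, a distal share of 34.1% (33.2 to 34.9). The proximal row matches the lamin C form of 574 residues and the distal row the prelamin A form of 665 residues. Lmna has 2 proximal rows with 8237 reads each, and the distal share was 20.5% when they were summed and 26.4% on RPKM, both past 2-fold toward the proximal end. How shared reads were counted is not given, so the sum may count the same reads more than once. Ripor2, named Fam65b in the table and an inhibitor of RhoA, had 1849 and 3351 reads for forms of 633 and 1078 residues, a distal share of 64.4% (63.1 to 65.7). The mean over the rows of an end gave Ripor2 78.4%, past 2-fold toward the distal end.

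Further genes of this kind were chosen after their values were seen. Nsd3, a histone methyltransferase, had 403 reads on a row of 655 residues and 266 on one of 1446 residues, and Baiap2, an adaptor of Cdc42 and Rac, had 921 and 1129. Lamp2, a lysosomal membrane protein, had 615 proximal and 55 distal reads on rows of 415 residues each with different stop codons. Tor1aip2, a nuclear membrane protein gene with a short form, had 300 and 230 reads on rows of 131 and 502 residues. In Asph and Brwd1 an intermediate row stood above both ends, with 242 and 120 reads. Adora3, as the table names it, joins rows of 2 current gene symbols, so its contrast is not 1 of ends of a single gene. Adrbk2, now Grk3, was also listed under 2 symbols. Its rows share their 5′ boundary, and a row with no current symbol kept the table's name.

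In 10 genes the interval of the distal share held 50%: Abcc5, Cklf, Crem, Dclre1c, Eif4e2, Ifnar2, Med1, Senp7, Tnrc18 and Wdr33. The best covered of these was Eif4e2, a cap-binding repressor of translation, with 325 proximal and 362 distal reads on rows of 245 and 234 residues. Abcc5, an efflux transporter, had 133 reads on a row of 208 residues and 145 on the row of the full transporter of 1436 residues. Cklf, a chemokine-like factor, had 92 and 82 reads for forms of 152 and 96 residues. All but Ifnar2, Crem and Wdr33 were chosen after their values were seen.

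More genes with many reads and unequal rows, also chosen after their values were seen, were found in both directions. Higher distal rows were those of Rrbp1, a ribosome-binding protein of the endoplasmic reticulum, with 239 and 2667 reads for 701 and 1464 residues, and of Epsti1, an interferon-induced gene, with 56 and 2035. Sptbn1, a spectrin of the membrane skeleton, had 44 and 1866, and Acpp, an acid phosphatase, had 125 and 2461, for forms of 381 and 417 residues. Higher proximal rows were those of Ccpg1, an endoplasmic reticulum autophagy receptor, with 2105 and 401 reads, and Lrrfip1, with 1446 and 433. Jak3, the kinase of common gamma chain receptors, had 138 and 0, at least 46-fold lower on the distal row. Distal rows at 0 were otherwise those of AU040320, Aebp2, Dnajb11, Dnm2, Irf1, Ly6c1, Ppfibp2 and Rad51d.

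A hexamer was searched in the last 50 bases of transcripts that stop within 10 bases of a row, as AATAAA or, if that was missing, ATTAAA, on the strand of the transcript. Of 17659 such NM transcripts, 64.1% held AATAAA and 13.8% held ATTAAA, together 77.9%. Both ends could be searched in 109 of the 274 genes. The end with more reads held a hexamer in 97 (89.0%) and the end with fewer reads in 85 (78.0%). In the 26 genes past 2-fold toward the proximal end, 25 proximal ends and 22 distal ends held 1 of the hexamers. In the 70 genes past 2-fold toward the distal end, 62 distal ends (88.6%) and 53 proximal ends (75.7%) did. The end with the fewer reads was thus near the share of all NM transcripts. The distal ends of Lmna and Ifnar2, both ends of Irf1 and Arl2bp, and the proximal ends of Dad1, Pde4b and Zc3hav1 held neither. A match is a run of letters, not a site shown to be used.

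**Figure D5:**
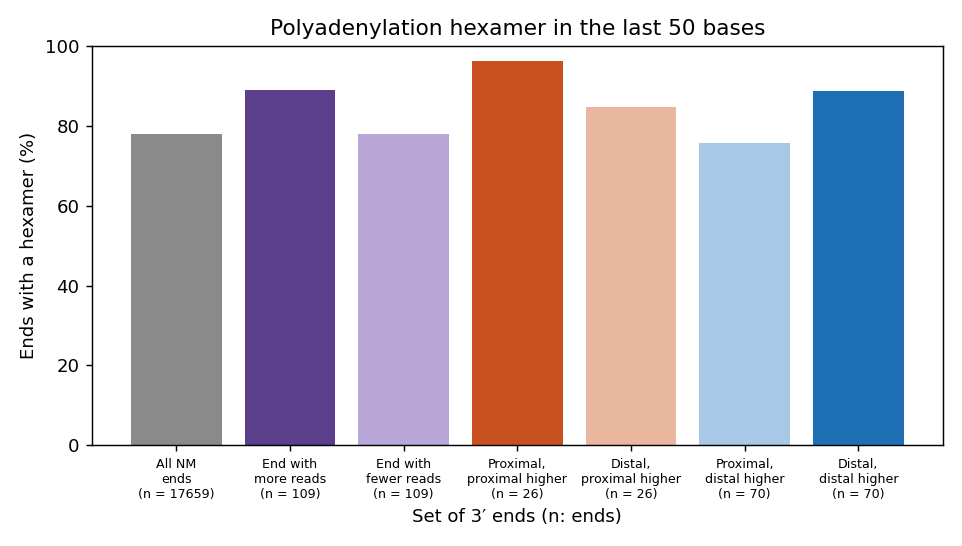
Percent of 3′ ends (y axis, from 0) with AATAAA or ATTAAA in the last 50 bases, for all NM transcripts and for the ends of genes with both ends searched, by read level and by the 2-fold class of the gene. Ends with more reads stand at 89.0%, ends with fewer reads at 78.0% and all NM transcripts at 77.9%.

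Of 26 listed genes of the cleavage and polyadenylation complexes and their partners, 20 (76.9%) had an RPKM of 1 or more, with a median of 2.93. Over all 23492 genes of the table, 31.0% had an RPKM of 1 or more, and the median was 0.185. The levels below are RPKM of the highest row. Pabpn1, the nuclear poly(A)-binding protein, stood at 129 (129.5), Snrnp70 of the U1 particle at 56.2, Cpsf7 of the CFIm complex at 29.8 and Rbbp6, a ubiquitin ligase bound to the 3′ end complex, at 22.3. Nudt21, the CFIm subunit that binds upstream of the site, was at 0.487 from 11 reads and Cstf3 at 0.291 from 14, both named after their values were seen. Rbbp6 itself has separate ends, with 122 reads on a short proximal row and 2433 on the distal row, a distal share of 95.2% (94.3 to 96.0). Wdr33, the subunit that contacts the hexamer, had 81 proximal and 65 distal reads, a share of 44.5% with an interval of 36.3% to 53.0%. On RPKM its distal share was 21.0%, past 2-fold toward the proximal end.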

How the data were processed

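CEL-Seq libraries of 2 samples, 3 technical libraries each, were analysed. The submitters' processing notes list STAR 2.4.2a, DESeq and the build mm10. For the counter, its treatment of shared reads and the annotation release, the entry is: not given in the sources used here. In the deposited table stands a mean read total per RefSeq row, whole within 0.0001 after multiplication by 6, and an RPKM computed by the authors. Each is 1 value for the whole group. There were 0 columns of other samples.

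Rows within 500 bases of the most upstream end formed the proximal end, those within 500 bases of the most downstream end the distal end. The row with most reads stood for each end, and genes needed 60 reads over both. Symbols were brought to current names by accession (30726 of 31295 rows). Exons, stop codons and sequences came from GENCODE M21 through its RefSeq links. Named genes were the 12 with most reads, the 8 most distal and 8 most proximal of 123 with 300 reads or more, and up to 4 of each of 10 gene lists (all of the receptors), the genes nearest the 500 base limit and the 4 cleavage machinery genes with most reads. Any other name was picked with its values in view, as the text states; some genes are not reported here. Members and lists were chosen with earlier results of these data known.

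Alternatives were minimums of 30 and 300 reads, sums or means over an end's rows, distances of 1000 and 2000 bases, RPKM, exactly 2 rows, no equal totals, no neighbouring gene in the stretch, and other call rules. Computation ran in Python 3.11.15 (pandas 2.3.3, numpy 2.4.6), intervals in scipy 1.17.1, plots in matplotlib 3.10.9. Reads were also simulated by drawing counts straight onto the 2 rows of 200 of the genes compared. The interval covered the true share in 98.0%. The 2-fold calls took the right direction in 100% at 8-fold and 98.8% at 2.83-fold, and 2.50% of equal rows were called. The simulation held no reads shared between rows and no amplification copies, so it checks the computation only.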

Additional observations from a re-analysis of the deposited data

How the results depend on the processing

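The median log2 ratio kept its sign under all 12 alternatives run for it, from 2.62 on RPKM to 3.47 with exactly 2 rows. The counts of 171 distal and 66 proximal genes moved by over 1.5 times where fewer genes were compared: to 70 and 35 of 123 at a minimum of 300 reads, and to 98 and 36 of 146 with exactly 2 NM rows. The difference in median log2 between alternative last exons and tandem ends was -1.15. Row coordinates alone do not separate these classes, and proximal ends outside against inside the distal row gave 2.98. The distal share of Ifnar2 fell from 54.0% to 28.6% on RPKM, that of Wdr33 from 44.5% to 21.0%, and that of Crem went from 47.4% to 51.4% with summed rows, 14.0% with their mean and 40.8% on RPKM. These are shifts between measures of the same reads. RPKM divides by row length, and the mean divides by the number of rows of an end, 2 proximal and 13 distal in Crem. No cause in the cells was tested. Alternatives chosen after seeing the data were genes with 1 current symbol, proximal ends in an intron, exactly 2 rows sharing an end, and the use of these settings on the distal share, over all genes and for single genes. No paired analysis was possible because there is 1 group, and leaving out a replicate was not run since the table holds 1 value per row. At the minimum of 60 reads, the floor of 3 reads set for a row at 0 equals a share of 5%, which is not an upper limit of that share. A total of 0 limits reads given to a row, not use of its end.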
